A study of Mus musculus with 8 samples.

Results

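MHC class I molecules display peptides from inside the cell to CD8+ T cells. A heavy chain pairs with beta-2 microglobulin in the endoplasmic reticulum, where the TAP transporter delivers peptides that the proteasome has cut. In immune cells, interferon-induced subunits replace the catalytic subunits of the proteasome, and Nlrc5 switches on class I genes together with RFX, CREB and NF-Y factors bound at their promoters. Regulatory T cells, like other lymphocytes, carry class I at their surface.

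The 10 genes described here were taken by symbol from the 23361 genes with an FPKM value (fragments scaled by exon length and by the mapped fragments of the library). H2-K1 and H2-D1 encode the classical heavy chains and B2m beta-2 microglobulin. Tap1, Tap2 and Tapbp (tapasin) serve peptide transport and loading, Psmb8, Psmb9 and Psmb10 are the immunoproteasome catalytic subunits, and Nlrc5 is the class I transactivator. All 10 were found and passed the filter, a mean FPKM of 1 or more, as did 10467 genes in all.

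The RNA came from induced regulatory T cells (iTreg). Naive CD4+ T cells came from wild-type Foxp3-RFP mice, which carry a red reporter of Foxp3 and are of the B6 strain in the study's methods. They were cultured with anti-CD3/CD28 beads, IL-2 and TGF-β at 2 ng/ml. Viable Foxp3-RFP+ cells were divided by Nrp-1, which gave 4 libraries of Nrp-1+ iTreg and 4 of Nrp-1- iTreg, labelled as biological replicates. The labels give IL-2 at 50 U/ml and 3 days of culture but also, in another field, day 5; the study's methods give the IL-2 dose by weight and sort on day 3, and the named library kits differ as well. The labels do not say whether the replicates came from separate mice, so p-values measure the spread between these libraries. The comparison asks which genes differ between iTreg that do and do not carry Nrp-1, so the treatment itself is the same in both groups.

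Nrp1 itself, whose protein was the basis of the sort, lay at 20.4 to 21.98 FPKM in Nrp-1+ iTreg and at 4.70 to 5.31 FPKM in Nrp-1- iTreg. The 6 T cell markers measured all reached a mean FPKM of 1. Foxp3 lay at 112 to 120.5 FPKM in Nrp-1+ iTreg and at 107 to 109.9 FPKM in Nrp-1- iTreg, without overlap. Of B cell genes Ms4a1 and Pax5 were listed at 0 in every library, while Cd79a reached 0.867 FPKM and Cd79b lay between 3.64 and 5.38 FPKM. Of macrophage and dendritic cell markers 8 of 9 stayed under 0.5 FPKM in every library. Of the CD8 markers Cd8a did not exceed 0.111 FPKM, while Cd8b1 ranged from 7.07 to 11.3 FPKM. Library depth relative to replicate 1 of Nrp-1+ iTreg, read from the steps between low values, ranged from 0.810 to 1.24. Short RNA genes, which FPKM inflates, took 1.77% to 43.9% of the summed FPKM. FPKM is a share of the library, so a gene can read lower where other transcripts take more of it. Each library holds RNA of many sorted cells, so fewer cells with a transcript and less of it per cell cannot be told apart.

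The promoters of H2-K1, H2-D1 and B2m show what these genes have in common before any level is compared. RefSeq windows (build GRCm38.p6) were found for 8 of the 10 genes. The first 3 sequences are the 250 bases before a RefSeq transcript start, which is the gene's own start for H2-D1 and B2m. For H2-K1 it is the one at chr17:34000347, which lies 272 bases inside the gene's outermost start at chr17:34000619, so that the printed stretch is within the span given for the gene. They are shown because they hold the elements through which interferon, NF-κB and Nlrc5 are known to act on class I genes. Capitals mark a κB-type motif, an IRF-type motif (AANTGAAA, within the interferon-stimulated element GAAANNGAAA in B2m), and a TGACG core followed after 20 bases by ATTGG, the inverted CCAAT box. The fourth is the 225 bases between the starts of Psmb9 and Tap1, which are read in opposite directions from it, and its capitals mark CCAAT and TGACG.
H2-K1, chr17:34000348-34000597, minus strand: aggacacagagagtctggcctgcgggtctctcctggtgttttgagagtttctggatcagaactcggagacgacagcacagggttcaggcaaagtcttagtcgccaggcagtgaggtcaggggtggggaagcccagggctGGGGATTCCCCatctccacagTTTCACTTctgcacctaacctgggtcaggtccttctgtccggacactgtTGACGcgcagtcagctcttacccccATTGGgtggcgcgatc
H2-D1, chr17:35262844-35263093, plus strand: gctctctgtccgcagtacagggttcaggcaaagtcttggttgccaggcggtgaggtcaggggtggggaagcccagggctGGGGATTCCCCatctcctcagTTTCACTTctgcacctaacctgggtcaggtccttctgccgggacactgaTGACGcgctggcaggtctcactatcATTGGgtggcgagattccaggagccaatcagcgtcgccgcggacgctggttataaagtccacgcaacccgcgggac
B2m, chr2:122147437-122147686, plus strand: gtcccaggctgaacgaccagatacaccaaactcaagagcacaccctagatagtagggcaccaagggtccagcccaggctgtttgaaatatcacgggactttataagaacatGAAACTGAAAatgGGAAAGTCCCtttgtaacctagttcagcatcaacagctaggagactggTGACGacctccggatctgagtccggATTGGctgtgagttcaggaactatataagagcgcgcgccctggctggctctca
Psmb9 and Tap1, chr17:34187331-34187555, plus strand: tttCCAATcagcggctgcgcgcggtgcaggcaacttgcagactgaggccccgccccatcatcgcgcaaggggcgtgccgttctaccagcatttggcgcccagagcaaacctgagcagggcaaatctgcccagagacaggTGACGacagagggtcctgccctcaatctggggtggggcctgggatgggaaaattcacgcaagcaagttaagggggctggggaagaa

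The same spacing of TGACG and ATTGG stood in all 3 of H2-K1, H2-D1 and B2m, starting 41, 101 and 78 bases before those transcript starts. Searched on both strands, this pair was in 31 of 32851 windows of 300 bases, or 0.0944%. The spacing was chosen after the 3 sequences were seen. No window of the other 5 genes with one held it, and among 12 other class I and class I-like heavy chains with a window it was in that of H2-M3. The κB-type motif was in 8.46% of all windows, the IRF-type motif in 6.58%, GAAANNGAAA in 3.44%, TGACG in 20.8% and CCAAT in 37.4%. These are matches of letters and not measured binding.

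Of the 10 genes, 6 were lower in Nrp-1+ iTreg and 0 higher at an adjusted p under 0.05 (limma on log2(FPKM + 1), Benjamini-Hochberg over all tested genes). Of all tested genes 20.0% were lower and 20.9% higher by the same rule (2093 and 2189 genes; 2903 and 1983 under quantile normalization without short RNA genes, 2748 and 1834 with a correction for GC content and length). The median log2 fold change was -0.09 over the 10 genes and -0.02 over all tested genes. In 5 genes the groups did not overlap, with every Nrp-1+ library lower, against 19.3% of all tested genes, and in 0 with every Nrp-1+ library higher, against 20.2%. Without short RNA genes the counts were 6 lower and 1 higher, Psmb9. The differences were small, from -0.30 to 0.10 on the log2 scale, and the count fell to 1, Nlrc5, under quantile normalization, which forces each library to the same distribution and called 2023 genes lower and 1768 higher in all. With the GC and length correction it was 7, Tap1 added, with H2-K1 at -0.14, H2-D1 at -0.14 and B2m at -0.18. With the replicate numbers as a block in the fit the count was 1, Nlrc5, beside 1675 genes lower and 1931 higher in all.

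**Figure D1:**
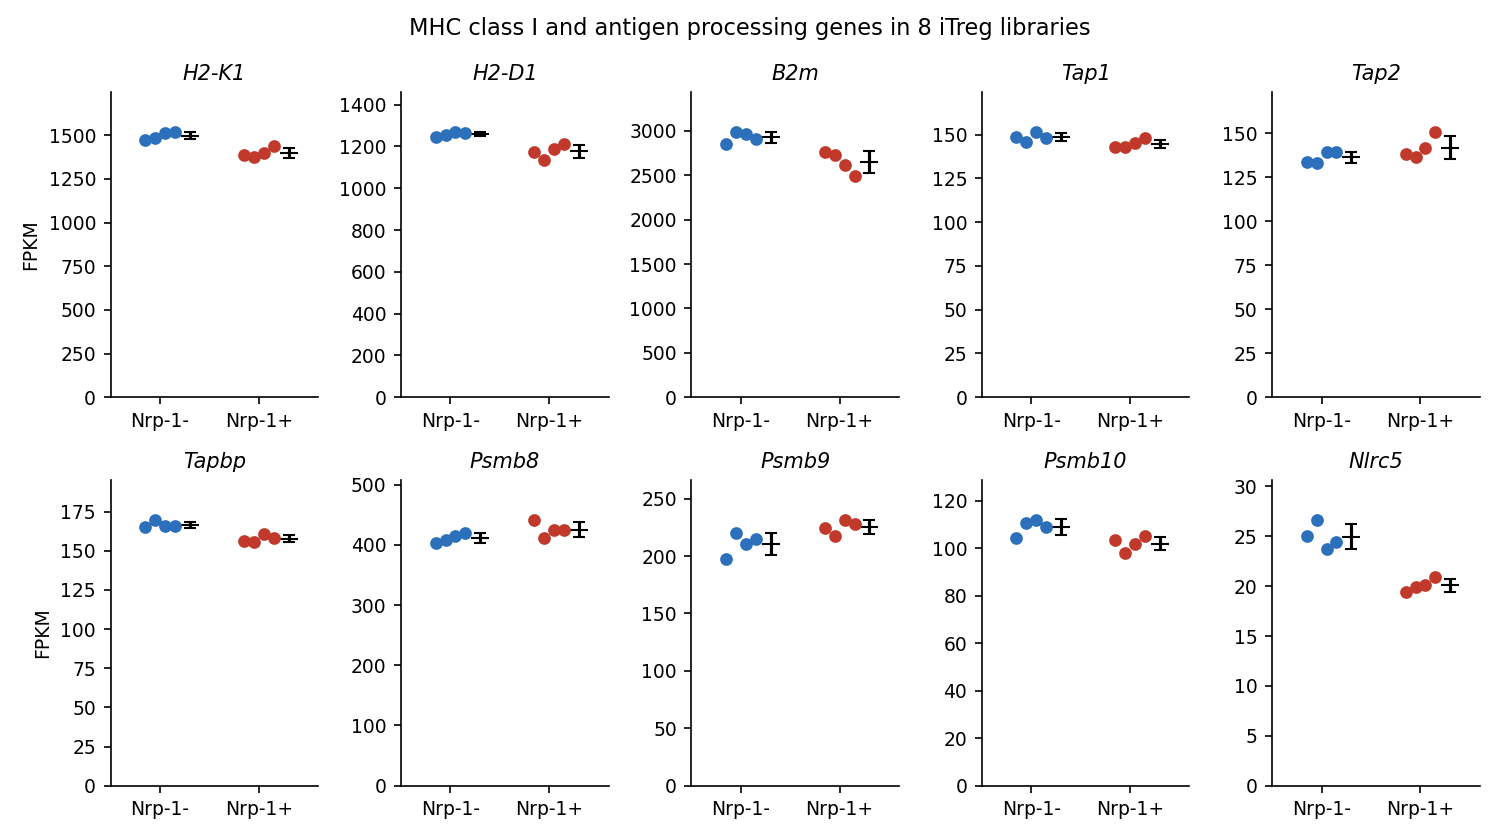
FPKM of the 10 genes in 4 Nrp-1- iTreg libraries (blue) and 4 Nrp-1+ iTreg libraries (red), each on an axis that starts at 0; black bars give the mean and SD. The groups are apart for H2-K1, H2-D1, B2m, Tapbp and Nlrc5, and the gap is widest in proportion for Nlrc5, with means of 20.1 and 24.95 FPKM.

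Nlrc5 (chr8:94434335-94527272), the transactivator, differed most among the 10. Its FPKM was 19.4, 19.9, 20.1 and 20.9 in Nrp-1+ iTreg and 25.1, 26.6, 23.7 and 24.5 in Nrp-1- iTreg. The highest Nrp-1+ library was below the lowest Nrp-1- library. The mean was 20.1 ± 0.625 FPKM (SD, n = 4) against 24.95 ± 1.23 FPKM (SD, n = 4). Nlrc5 fell by 0.30 on the log2 scale (SE 0.04, 95% interval -0.39 to -0.21, adjusted p = 0.000496, limma). It was the one gene of the 10 called in all 21 alternative limma fits, between -0.32 and -0.27. Among tested genes with a mean FPKM from 10 to 100, short RNA genes left out, 23.6% were lower in Nrp-1+ iTreg, with a median log2 fold change of -0.02.

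H2-K1 (chr17:33996012-34000619) and H2-D1 (chr17:35263094-35267497) encode the heavy chains H-2K and H-2D, and were among the most abundant transcripts. H2-K1 was at 1387, 1374.5, 1401 and 1440 FPKM in Nrp-1+ iTreg and at 1474, 1487, 1511 and 1520 FPKM in Nrp-1- iTreg. H2-D1 was at 1172, 1136, 1186 and 1210 FPKM in Nrp-1+ iTreg and at 1247, 1255, 1270 and 1262 FPKM in Nrp-1- iTreg. For both genes all 4 Nrp-1+ libraries were below all 4 Nrp-1- libraries. H2-K1 fell by 0.10 on the log2 scale (SE 0.03, adjusted p = 0.0155, limma), a change of -6.48%, but was at 0.06 (adjusted p = 0.843) under quantile normalization. H2-D1 fell by 0.10 as well (SE 0.03, adjusted p = 0.0161, limma), and was at -0.02 (adjusted p = 0.951) under quantile normalization. The transcripts of both genes are 91.1% identical over 1578 aligned bases, with a longest identical stretch of 91 bases, so part of their reads could be assigned to either.

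B2m (chr2:122147687-122153082), the light chain shared by all class I heavy chains, had FPKM of 2764, 2723, 2611 and 2498 in Nrp-1+ iTreg and of 2852, 2990, 2968 and 2906 in Nrp-1- iTreg. The groups did not overlap. B2m fell by 0.15 on the log2 scale (SE 0.04, adjusted p = 0.0173, limma), with -0.01 (adjusted p = 0.974) under quantile normalization and a sign turned to 0.01 when short RNA genes were also left out of it. Without replicate 3 of Nrp-1+ iTreg the adjusted p was 0.0584, and it was 0.0554 with no filter on low genes. B2m divided by the sum of H2-K1 and H2-D1 lay between 0.943 and 1.09 in Nrp-1+ iTreg and between 1.04 and 1.09 in Nrp-1- iTreg, so the balance of light and heavy chain transcripts overlapped between the groups.

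The 3 genes share their level as well as their direction with other abundant transcripts. Of the 101 tested genes whose mean FPKM reached 1000, short RNA genes left out, 70 (69.3%) were lower in Nrp-1+ iTreg and 4 higher, and their median log2 fold change was -0.16. That bound was set after the values were seen. Ribosomal protein genes made up 72 of the 101, of which 56 were lower and 0 higher. B2m had 56 of the 101 genes below it in log2 fold change, H2-D1 80 and H2-K1 81, so the heavy chains lay on the less changed side of this level. Counted by rank within each library, without short RNA genes, H2-K1 took places 88 to 91 in Nrp-1+ iTreg and 87 to 90 in Nrp-1- iTreg. H2-D1 took places 93 to 96 and 93 to 95, and B2m places 49 to 59 and 52 to 59. The ranks of all 3 thus overlapped between the groups, whereas Nlrc5 took places 4013 to 4236 in Nrp-1+ iTreg and 3272 to 3584 in Nrp-1- iTreg.

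**Figure D2:**
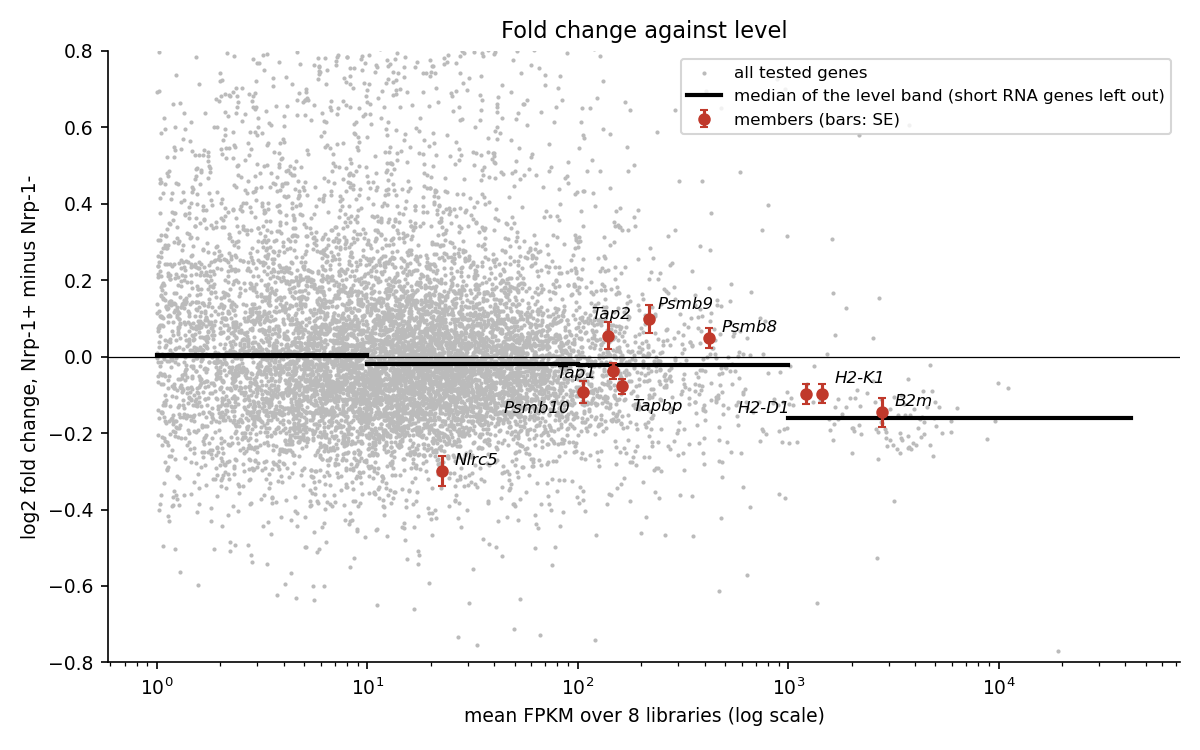
Log2 fold change (Nrp-1+ minus Nrp-1- iTreg) of all tested genes against mean FPKM on a log axis, with the 10 genes in red (bars, SE) and the median of each level band, without short RNA genes, as a black line; 383 genes lie outside the plotted range. H2-K1, H2-D1 and B2m lie at or above the median of -0.16 of the most abundant genes, and Nlrc5 lies well under the median of -0.02 of its band.

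Of the transport and loading genes Tapbp passed the test, and differences between these genes were not tested. Tapbp (chr17:33919478-33929290), which bridges TAP and empty class I molecules, was at 156, 156, 161 and 158 FPKM in Nrp-1+ iTreg and at 165, 170, 166 and 166 FPKM in Nrp-1- iTreg. The groups did not overlap, and Tapbp fell by 0.08 on the log2 scale (SE 0.02, adjusted p = 0.0124, limma; -0.09 with adjusted p = 0.213 under quantile normalization). Tap1, 1 chain of the transporter, was at 143, 143, 145 and 148 FPKM in Nrp-1+ iTreg and at 149, 146, 152 and 148 FPKM in Nrp-1- iTreg. Tap2, the other chain, was at 138, 136, 142 and 151 FPKM in Nrp-1+ iTreg and at 134, 133, 139 and 139 FPKM in Nrp-1- iTreg. Both overlapped between the groups and neither passed the test. The log2 fold change was -0.04 for Tap1 (95% interval -0.09 to 0.01, adjusted p = 0.181) and 0.05 for Tap2 (95% interval -0.03 to 0.13, adjusted p = 0.241) in limma. With the GC and length correction Tap1 was called lower, at -0.07 (adjusted p = 0.0180). Of tested genes with a mean FPKM from 100 to 1000, short RNA genes again left out, the level of the transport, loading and immunoproteasome genes, 31.3% were lower and 23.4% higher.

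Of the immunoproteasome subunits Psmb10 passed the test. Psmb8 was at 441, 411, 424 and 425 FPKM in Nrp-1+ iTreg and at 402, 407, 414 and 420 FPKM in Nrp-1- iTreg, with a log2 fold change of 0.05 (95% interval -0.01 to 0.11, adjusted p = 0.182, limma). Psmb9 was at 225, 217, 231 and 228 FPKM in Nrp-1+ iTreg and at 197, 220, 210 and 215 FPKM in Nrp-1- iTreg, with a log2 fold change of 0.10 (95% interval 0.01 to 0.18, adjusted p = 0.0640, limma). Replicate 2 was the lowest library of the one group and the highest of the other. Without replicate 2 of Nrp-1- iTreg Psmb9 was called higher (0.12, adjusted p = 0.0380, limma), and also when short RNA genes were left out (adjusted p = 0.0369). Psmb10 (chr8:105935728-105938392) was at 103, 98.0, 102 and 105 FPKM in Nrp-1+ iTreg and at 104, 110, 112 and 109 FPKM in Nrp-1- iTreg, and the groups overlapped by 1 library on each side. It fell by 0.09 on the log2 scale (SE 0.03, adjusted p = 0.0373, limma; -0.11 with adjusted p = 0.149 under quantile normalization, -0.14 with adjusted p = 0.0275 after the GC and length correction). That call was lost in 6 of the 8 fits that left out a library, at adjusted p from 0.0575 to 0.0910, and was kept without replicate 4 of Nrp-1+ iTreg or replicate 1 of Nrp-1- iTreg.

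Each immunosubunit takes the place of one constitutive subunit, so their transcript ratio was compared in each library. Psmb8 to Psmb5 was 3.59, 3.51, 3.52 and 3.46 in Nrp-1+ iTreg and 3.47, 3.59, 3.42 and 3.35 in Nrp-1- iTreg. Psmb9 to Psmb6 was 2.44, 2.55, 2.46 and 2.49 against 2.38, 2.57, 2.29 and 2.33. Both ratios overlapped between the groups (exact two-sided permutation p = 0.343 and 0.229). Psmb10 to Psmb7 was 0.744, 0.701, 0.691 and 0.762 in Nrp-1+ iTreg and 0.818, 0.881, 0.837 and 0.808 in Nrp-1- iTreg. Every Nrp-1+ library was below every Nrp-1- library, with a difference in means of -0.112 (exact two-sided permutation p = 0.0286, the smallest that 4 against 4 libraries can give). Adjusted over the 3 ratios that p was 0.0857, so none of the ratios passed. The constitutive subunit Psmb7 rose by 0.11 on the log2 scale (adjusted p = 0.0222, limma; 0.0529 to 0.0547 without replicate 3 of Nrp-1+ iTreg or replicate 1 or 2 of Nrp-1- iTreg). That call was also lost under quantile normalization (0.10, adjusted p = 0.257) and with the GC and length correction, where the log2 fold change was 0.07 (adjusted p = 0.267). Psmb5 was at 0.02 (adjusted p = 0.620) and Psmb6 at 0.04 (adjusted p = 0.471).

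Psmb9, Tap1, Psmb8 and Tap2 lie in this order within 34.3 kb of chromosome 17 (chr17:34182030-34187330, chr17:34187556-34197225, chr17:34198195-34201454 and chr17:34204479-34216321), in the MHC between H2-K1 and H2-D1. Psmb9 and Tap1 start 226 bases apart on opposite strands, on both sides of the stretch printed above. Their log2 fold changes were 0.10 and -0.04, and the difference between the genes was not tested. None of the 4 neighbours passed the test.

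**Figure D3:**
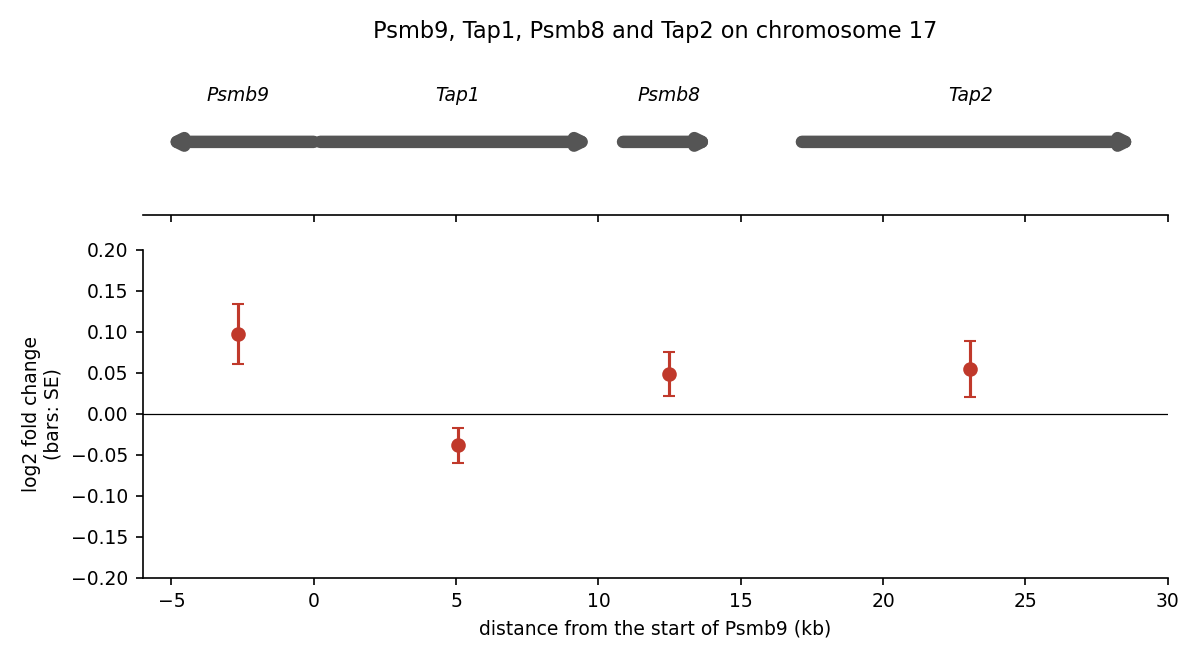
Map of Psmb9, Tap1, Psmb8 and Tap2 drawn to scale by distance in kb from the start of Psmb9 (arrows, direction of transcription) with the log2 fold change (Nrp-1+ minus Nrp-1- iTreg) and SE of each gene under it. Psmb9, Psmb8 and Tap2 sit at 0.10, 0.05 and 0.05 and Tap1 at -0.04.

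Of 70 further class I pathway genes, 61 were tested, of which 16 were lower and 11 higher in Nrp-1+ iTreg, beside 20.0% lower and 20.9% higher of all tested genes. Their median log2 fold change was -0.03. By role, the heavy chains were the group with no gene higher.

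Among other class I and class I-like heavy chains, 6 of 16 tested genes were lower and 0 higher, beside 20.0% and 20.9% of all tested genes, with a median log2 fold change of -0.17. H2-K2, a transcribed pseudogene of the K region in GENCODE M21, was at 15.8, 13.8, 15.8 and 16.3 FPKM in Nrp-1+ iTreg and at 24.04, 23.3, 24.2 and 23.3 FPKM in Nrp-1- iTreg. It fell by 0.59 (SE 0.05, adjusted p = 3.28e-05, limma), and its transcript is 88.9% identical to that of H2-K1 over 1350 aligned bases. H2-T24 fell by 0.39 (adjusted p = 0.00737). Cd1d1, which presents lipids, fell by 0.36 (adjusted p = 0.0114), from 10.3 to 10.98 FPKM in Nrp-1- iTreg against 6.92 to 9.91 FPKM. H2-T10 fell by 0.27 (adjusted p = 0.00638), and its transcript is 97.4% identical to that of H2-T22, which was at -0.20 (adjusted p = 0.0711). The other genes lower, named after their values were seen, were H2-M3, which presents formylated peptides, at -0.26 and H2-T23 (Qa-1), a ligand of NKG2 receptors, at -0.23. H2-T23 was the most abundant of the 6, at 355, 339, 343 and 351 FPKM in Nrp-1+ iTreg and 397, 399, 409 and 421 FPKM in Nrp-1- iTreg, without overlap. Its adjusted p was 0.000300 (limma) and 0.114 under quantile normalization, with a log2 fold change of -0.23 in both. H2-Q4, H2-Q7 and H2-Q9 of the Q region had log2 fold changes of -0.04, -0.04 and -0.0045 and did not pass.

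H2-Q6 and H2-Q8 took turns between libraries rather than between groups. H2-Q6 was at 0.423, 16.7, 16.4 and 13.3 FPKM in Nrp-1+ iTreg and at 6.17, 13.4, 0.190 and 13.5 FPKM in Nrp-1- iTreg. H2-Q8 was at 14.3, 0.221, 0.002001 and 5.05 FPKM in Nrp-1+ iTreg and at 7.21, 0.0117, 13.1 and 0.0174 FPKM in Nrp-1- iTreg. In most libraries of both groups the one was low and the other high. Replicate 4 of Nrp-1+ iTreg (13.3 and 5.05 FPKM) and replicate 1 of Nrp-1- iTreg (6.17 and 7.21 FPKM) held both. Their sum was 14.7, 16.9, 16.4 and 18.4 FPKM in Nrp-1+ iTreg and 13.4, 13.4, 13.2 and 13.5 FPKM in Nrp-1- iTreg, and the sums did not overlap. Both belong to the Q region family, and the transcripts of H2-Q6 and H2-Q7 shared an identical stretch of 265 bases. The identity of H2-Q6 and H2-Q8 was not measured, nor was the division of reads between them tested. The sum, formed after the values were seen, was not tested. H2-L, for which the annotation tables used here had no entry, lay between 61.2 and 106 FPKM in Nrp-1+ iTreg and between 84.2 and 116 FPKM in Nrp-1- iTreg.

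**Figure D4:**
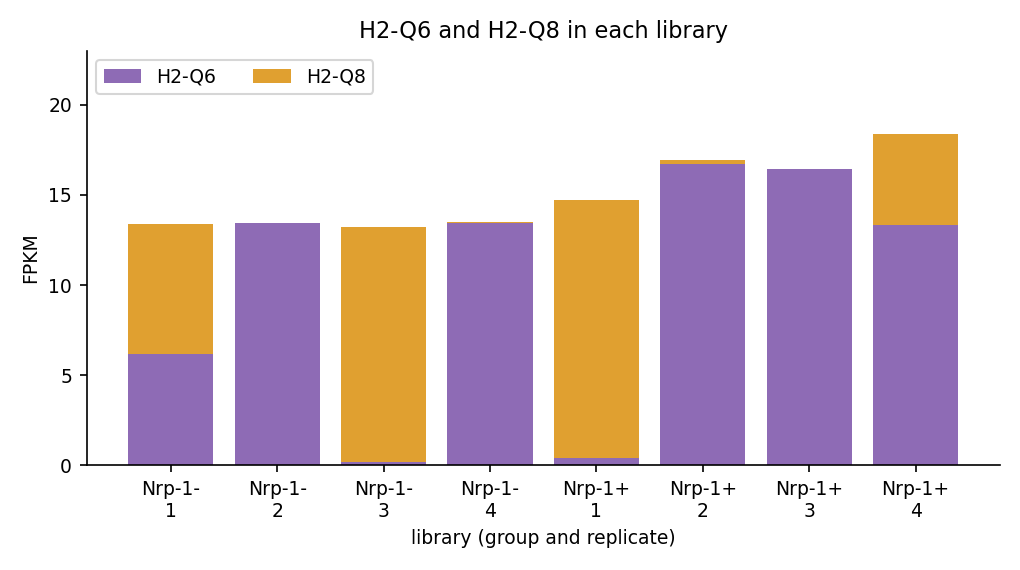
FPKM of H2-Q6 (purple) and H2-Q8 (orange), stacked, in each of the 8 libraries. The share of each gene changes from library to library within both groups, while the sum stays between 13.2 and 13.5 FPKM in Nrp-1- iTreg and between 14.7 and 18.4 FPKM in Nrp-1+ iTreg.

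In the endoplasmic reticulum group 4 of 16 tested genes were higher and 3 lower, near the 20.9% and 20.0% of all tested genes. The lectin chaperones that fold new heavy chains were higher: Calr (calreticulin) was at 247, 245, 250 and 246 FPKM in Nrp-1+ iTreg and at 203, 200, 214 and 210 FPKM in Nrp-1- iTreg, and rose by 0.26 (SE 0.03, adjusted p = 9.23e-05, limma). Canx (calnexin) rose by 0.19 (adjusted p = 0.00106), and Hspa5 (BiP), a general chaperone of the compartment, by 0.23 (adjusted p = 0.000524). These chaperones fold many other proteins as well. Sec61b, a translocon subunit, fell by 0.11 (adjusted p = 0.0454). That call was lost in 7 of the 8 fits that left out a library (adjusted p from 0.0558 to 0.109) and kept without replicate 1 of Nrp-1- iTreg. It was lost under quantile normalization too (-0.11, adjusted p = 0.364). The other calls, named after their values were seen, were the peptidase Thop1 at 0.56, the trimming aminopeptidase Erap1 at -0.10 and the tapasin relative Tapbpl at -0.07, whose adjusted p reached 0.0761 with a library left out. Pdia3, the thiol partner of tapasin, was at -0.03 (adjusted p = 0.391).

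Among constitutive subunits, PA28 and proteasome assembly factors, 3 of 12 tested genes were lower and 2 higher, near the 20.0% and 20.9% of all tested genes. Psme2, a subunit of the interferon-induced activator PA28, was at 354, 332, 343 and 350 FPKM in Nrp-1+ iTreg and at 358, 367, 377 and 398 FPKM in Nrp-1- iTreg. It fell by 0.12 (adjusted p = 0.0314, limma; 0.0579 to 0.0782 without replicate 2 or 3 of Nrp-1+ iTreg or replicate 3 or 4 of Nrp-1- iTreg). Its partner Psme1, named after its value was seen, was at -0.10 (adjusted p = 0.0131). Under quantile normalization neither call was kept, with -0.10 (adjusted p = 0.530) for Psme2 and -0.07 (adjusted p = 0.602) for Psme1. The assembly chaperones Psmg4 and Psmg2 moved in opposite directions, with log2 fold changes of -0.21 (adjusted p = 0.00916) and 0.17 (adjusted p = 0.0414). Both calls were lost with the GC and length correction, at -0.18 (adjusted p = 0.179) and 0.12 (adjusted p = 0.193). The call of Psmg2 was lost under quantile normalization as well (0.16, adjusted p = 0.0846). With a library left out, the call of Psmg2 was kept without replicate 2 of either group and lost without any of the other 6 libraries, at adjusted p from 0.0599 to 0.103.

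Of factors known to act on class I promoters, 4 of 17 tested genes were lower and 5 higher, beside 20.0% and 20.9% of all tested genes. Irf1, an interferon-induced activator known to bind IRF-type motifs, was at 85.0, 87.4, 88.0 and 85.4 FPKM in Nrp-1+ iTreg and at 111, 109, 111 and 116 FPKM in Nrp-1- iTreg. It fell by 0.37 (SE 0.02, adjusted p = 1.02e-05, limma). Irf9, another interferon regulatory factor, fell by 0.20 (adjusted p = 0.000255). Rfx5, the DNA-binding RFX subunit through which Nlrc5 reaches the promoter, rose by 0.31 (SE 0.04, adjusted p = 0.000358), with 8.31 to 9.12 FPKM in Nrp-1+ iTreg against 6.70 to 6.93 FPKM in Nrp-1- iTreg. Relb, an NF-κB subunit, was at 21.2, 20.8, 23.6 and 23.1 FPKM in Nrp-1+ iTreg and at 19.6, 19.3, 20.2 and 18.9 FPKM in Nrp-1- iTreg, and rose by 0.17 (SE 0.04, adjusted p = 0.0147). The RFX subunits Rfxap and Rfxank were at -0.09 (adjusted p = 0.104) and -0.01 (adjusted p = 0.882). The remaining calls, named after their values were seen, were Irf7 at -0.12 and Irf2 at -0.10, and Nfya at 0.14, Nfyb at 0.11 and Nfkb1 at 0.08. With a library left out, the adjusted p reached 0.0700 for Irf2, 0.0611 for Irf7, 0.0583 for Nfyb and 0.0833 for Nfkb1. Under quantile normalization it was 0.0651 for Nfya, 0.0782 for Nfyb and 0.267 for Nfkb1, with log2 fold changes of 0.12, 0.10 and 0.06. Ciita, the class II counterpart of Nlrc5, stayed between 0.0403 and 0.124 FPKM, under the filter.

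**Figure D5:**
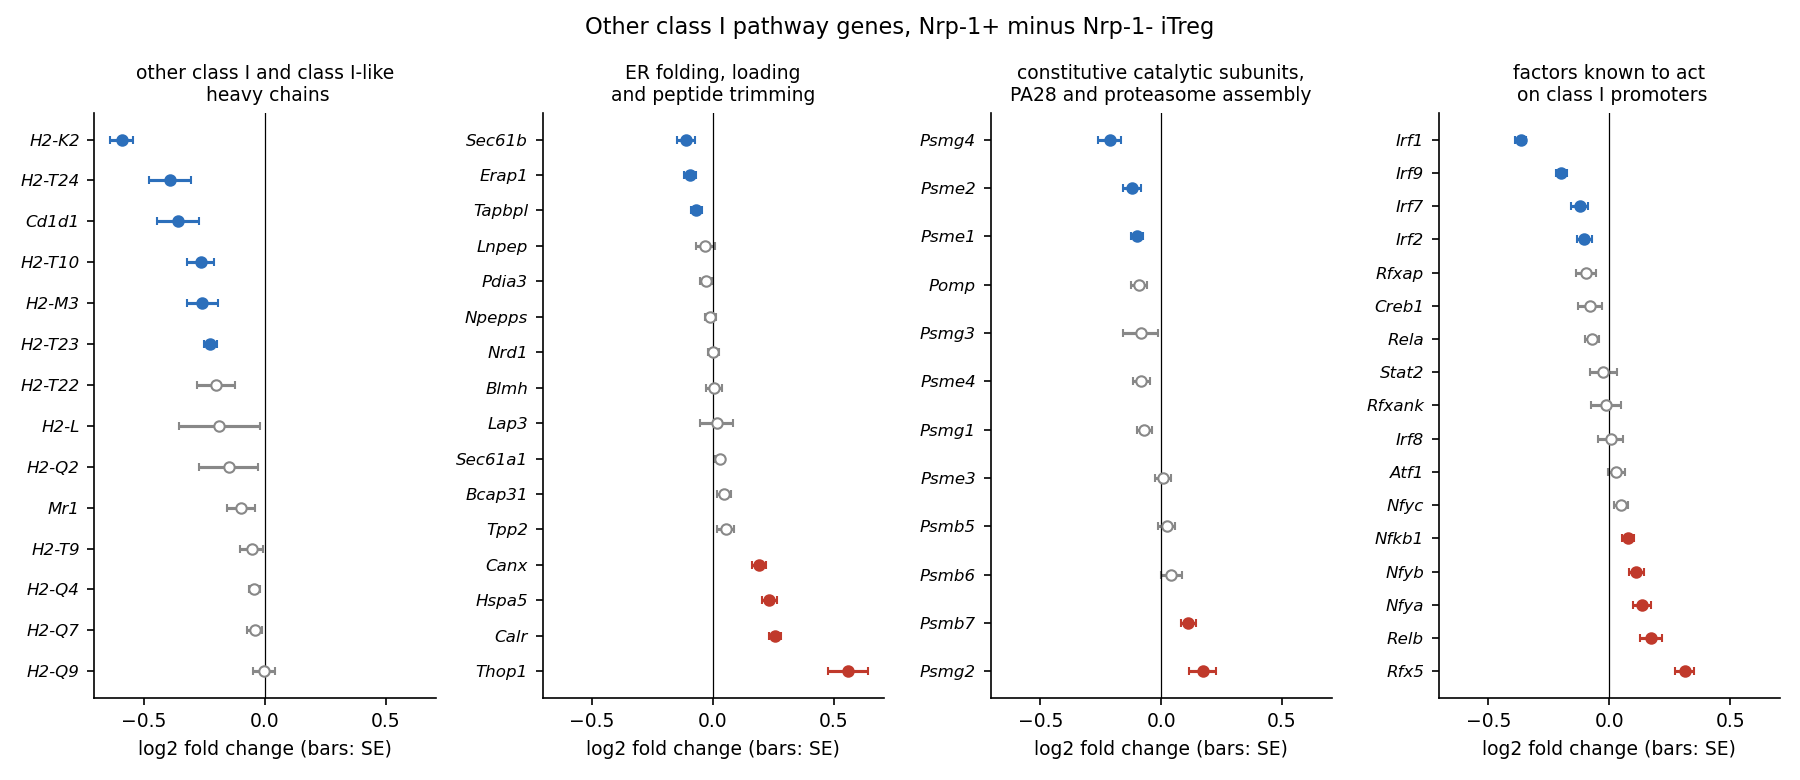
Log2 fold change (Nrp-1+ minus Nrp-1- iTreg, bars SE) of the tested class I pathway genes by role; filled points passed an adjusted p of 0.05 (blue lower, red higher), open points did not, and H2-Q6 and H2-Q8 are left out. The heavy chain panel has 6 blue points and 0 red ones, and the panel of factors 4 blue and 5 red ones.

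Other lists moved between the same groups. All 25 cell cycle genes of a proliferation list were higher in Nrp-1+ iTreg, with a summed level of 3064 to 3143 FPKM against 1672 to 1700 FPKM. Summed T cell markers lay between 1876 and 1918 FPKM in Nrp-1+ iTreg and between 1947 and 2057 FPKM in Nrp-1- iTreg. Of these Cd3d (-0.18, adjusted p = 0.00370, limma) and Cd3g (-0.11, adjusted p = 0.0375) were lower, Cd28 (0.09, adjusted p = 0.0433) was higher and 3 did not pass. Under quantile normalization those calls were lost, at adjusted p = 0.304 for Cd3d, 0.696 for Cd3g and 0.310 for Cd28. Summed regulatory T cell markers lay between 903 and 933 FPKM in Nrp-1+ iTreg and between 859.9 and 886 FPKM in Nrp-1- iTreg, with log2 fold changes of 0.09 for Foxp3, 0.22 for Il2ra, 0.31 for Ikzf2 and -0.16 for Ctla4 (adjusted p = 0.0245, 0.000108, 0.000853 and 0.000938) and 0.07 for Tnfrsf18 (adjusted p = 0.113). Under quantile normalization the calls of Foxp3 (0.08, adjusted p = 0.0992) and Ctla4 (-0.17, adjusted p = 0.0518) were lost. With a library left out the adjusted p of Foxp3 reached 0.0623. Cd8b1 was at 7.07 to 8.77 FPKM in Nrp-1+ iTreg and 9.28 to 11.3 FPKM in Nrp-1- iTreg (log2 fold change -0.31, adjusted p = 0.0119), and Itgam at 6.38 to 7.001 FPKM and 5.38 to 5.73 FPKM. Summed B cell markers overlapped, at 5.21 to 5.91 FPKM and 4.01 to 5.80 FPKM, most of it Cd79b, and 5 natural killer cell markers summed to 0.819 to 1.21 FPKM in Nrp-1+ iTreg and 0.464 to 0.808 FPKM in Nrp-1- iTreg, most of it Eomes. Of 10 class II genes 6 were tested: H2-Ab1 was at -0.39, Cd74 at 0.56 and H2-Oa at 0.19, and 3 did not pass. The part of these lists in the class I differences was not tested.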

How the data were processed

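The 8 libraries, 4 of Nrp-1+ iTreg and 4 of Nrp-1- iTreg, were grouped by the sample labels. Reads were processed by the authors on the CLC Genomics Workbench 11.0.1, and FPKM was calculated by the authors with Cufflinks and deposited as 1 value per gene symbol and library; the submitters' processing notes name the builds GRCm38 and mm10. Replicates were not pooled, and read counts were not used here. Genes whose mean FPKM reached 1 were tested on log2(FPKM + 1), so fold changes of low genes are understated, with limma 3.58.1 (eBayes with trend) in R 4.3.3 and Benjamini-Hochberg adjustment; the fit was tested on simulated data. Ratios used the exact permutation test in scipy 1.17.1. Transcript identities came from GENCODE M21 alignments (Biopython 1.88) of the longest transcripts, and positions and promoters from RefSeq GRCm38.p6. GENCODE M21 gave length and GC content for 99.4% of the tested genes.

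The members and lists were chosen with earlier results of these data known. Named were the 10 members, Psmb5, Psmb6, Psmb7, Rfx5, Irf1, Ciita, Nrp1 and, from each of 4 pathway roles, up to 4 genes with the largest absolute log2 fold change at an adjusted p under 0.05 and a mean FPKM of at least 5; others are marked as chosen after their values were seen. One gene of the rule was left out of the lists and is not reported here. Alternatives were other pseudocounts (0.1, 0.5), filters (none, 5), size factors, quantile normalization, a replicate block, no trend, array weights, no short RNA genes, an exact Mann-Whitney test and each library left out; a GC and length correction, and quantile normalization without short RNA genes, were added after the data were seen.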

Additional observations from a re-analysis of the deposited data

How the results depend on the processing

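Over 22 alternatives, 191 of 220 results for the 10 genes kept their direction and their side of the threshold. Another 23 lost the call with the same sign, 4 gained one, and 2 changed sign and lost the call. In the exact Mann-Whitney test that side was judged by the unadjusted p, whose smallest possible value with 4 against 4 libraries is 0.0286. Genes lower in Nrp-1+ iTreg numbered 6 of 10, 4 to 6 with a library left out, 1 under quantile normalization, 3 under quantile normalization without short RNA genes (chosen after the data were seen), 1 with the replicate block, 7 after correcting for length and GC content, and 4 where both were combined (H2-K1, H2-D1, B2m and Nlrc5, adjusted p = 0.0446, 0.0237, 0.0265 and 0.00456). H2-K1 turned to 0.0556 under quantile normalization and B2m to 0.00554 when short RNA genes were also left out of it. Quantile normalization gives each rank the same value in every library, and the ranks of H2-K1, H2-D1 and B2m overlapped between the groups. Genes higher numbered 0, and 1 (Psmb9) without short RNA genes, 1 with quantile normalization added and 0 to 1 with a library left out. Pathway genes higher numbered 11, against 6 under quantile normalization, 7 with the replicate block, 7 with a GC and length correction and 6 with that correction and the replicate block. Pathway genes lower numbered 16, against 13, 11, 18 and 12 in the same order. Under quantile normalization without short RNA genes, 22 were lower and 10 higher. The cause of these shifts was not tested. Psmb5 changed sign to -0.00538 under quantile normalization without short RNA genes and to -0.00074 with the GC and length correction, with and without the block.

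Same-numbered libraries did not deviate together (correlations of -0.54, -0.02, 0.01 and -0.50, and of -0.04, -0.06, -0.08 and -0.11 without short RNA genes), and 0 of 4 Nrp-1+ libraries correlated best with their own number, so the numbers are not taken to pair the samples. With the replicate block the adjusted p was 0.00597 for Nlrc5, 0.0659 for H2-K1, 0.0679 for H2-D1, 0.0659 for B2m, 0.0577 for Tapbp and 0.0941 for Psmb10, and Psme1 (0.0682), Psme2 (0.0553), Psmg2 (0.0670), Erap1 (0.0612), Tapbpl (0.0682), Nfya (0.0673), Nfyb (0.0746), Irf7 (0.0817) and Nfkb1 (0.0929) also lost the call. For the Psmb10 to Psmb7 ratio, whose difference of -0.112 is the same by construction, the sign-flip test with the replicate block gave an adjusted exact p of 0.25, where the smallest unadjusted p possible is 0.125. With 3 against 4 libraries no exact permutation p can go below 0.0571. Without counts, no interval for counting error can be given.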
